A study of Homo sapiens with 4 samples.

Results

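The genes described here are 46 genes of DNA double-strand break and crosslink repair, out of 32673 genes measured by RNA sequencing in imatinib-sensitive and imatinib-resistant human leukaemia cells. They were found in the expression table by their symbols, and all 46 were present. TF1-BA cells were made from TF1, a human erythroleukaemia line, by infection with a retrovirus carrying p210 BCR-ABL, and TF1-BAR cells are the resistant line derived from them by continuous exposure to imatinib, an inhibitor of the BCR-ABL kinase. Both lines therefore carry BCR-ABL, and each is a single cultured line. Each gave 2 libraries, and a replicate was taken from 10000000 cells. By the labels the medium held 10% foetal bovine serum and 2 ng/mL GM-CSF, a growth factor for TF1 cells, for which the methods of the study give another concentration. The labels also state 2 μM imatinib in the culture of the TF1-BAR cells. Whether the drug was still present when RNA was taken is not stated, so that exposure and resistance cannot be told apart. The TF1-BAR libraries carry a vector title in the labels, and any effect of a vector cannot be told apart from resistance either. Nothing states that the replicates were separate cultures, and p-values then measure only the spread between these libraries, which may be technical.

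A double-strand break is rejoined by end joining or by homologous recombination. In end joining the Ku proteins and a DNA-dependent kinase hold the ends, which are then ligated. In recombination the ends are resected and BRCA2 helps the strand exchange machinery to copy an intact sister strand. Crosslinks between the DNA strands are removed by the Fanconi anaemia proteins, which share BRCA2, PALB2 and BRIP1 with recombination. BCR-ABL has long been linked to DNA damage and to altered repair in leukaemia cells, and recombination is used mainly in the S and G2 phases of the cell cycle.

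The 4 libraries held between 15465497 (TF1-BA replicate 2) and 18042299 (TF1-BA replicate 1) fragments, the TF1-BAR libraries 15761642 and 16074303, as recovered from the deposited values. All 8 markers of TF1 cells were expressed, from 6.64 to 75.4 FPKM (fragment numbers divided by gene length and library size), and all 3 fibroblast markers were under 0.5 FPKM in every library. Of 3 T cell markers CD3E and CD2 were under 0.5 FPKM in every library while CD3D was not, and their sum was 19.2 and 20.8 FPKM in the TF1-BA libraries and 5.84 and 6.40 FPKM in the TF1-BAR libraries. The B cell marker CD79A was at 1.84 and 2.19 FPKM in the TF1-BA libraries and at 3.55 and 3.15 FPKM in the TF1-BAR libraries (log2 fold change 0.61, limma adjusted p = 0.026), and of 3 epithelial markers KRT8 alone exceeded 0.5 FPKM. KRT8 was at 8.82 and 9.94 FPKM in the TF1-BA libraries and at 12.2 and 12.8 FPKM in the TF1-BAR libraries (log2 fold change 0.40, limma adjusted p = 0.0317). The part of these genes in the differences of the repair genes was not tested. The summed level of the TF1 markers was 259.6 and 251.7 FPKM in the TF1-BA libraries and 357.4 and 379.1 FPKM in the TF1-BAR libraries. Of these markers 6 had a log2 fold change above 0. GATA1 and CSF2RA were below 0, at −0.14 and −0.19 (limma adjusted p = 0.164 and 0.155). In a bulk sample, fewer cells of a kind and less RNA per cell cannot be told apart.

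Reference promoter sequences were available from RefSeq (GRCh38.p14) for 41 of the 46 genes, and not for FANCI, WRN, XRCC5, PRKDC and NBN. Those of 5 repair genes that passed the test are shown, because their transcript levels moved in both directions, followed by that of CCNB2, a mitotic cyclin gene that is no repair gene and was chosen after its values were seen, as an example of a cell cycle promoter that fell. Each runs 5′ to 3′ on the strand of its gene, from 250 bases before the start to 30 after it. Capitals mark matches on either strand to the motifs searched, which were the E2F site (TTTGGCGC, TTTCCCGC, TTTGCCGC or TTTCGCGC), the CHR element (TTTGAA or TTCGAA), the NF-Y box (CCAAT), the ETS site (CCGGAAG) and the GC box (GGGCGG). Neighbouring matches can overlap, as the GC boxes of XRCC2 and RNF8 do and as a GC box and an NF-Y box of CCNB2 do. The windows are chr22:28741791-28742070 (minus strand) for CHEK2, chr13:32315258-32315537 (plus) for BRCA2, chr7:152676112-152676391 (minus) for XRCC2, chr6:37353733-37354012 (plus) for RNF8, chr1:226408064-226408343 (minus) for PARP1 and chr15:59104896-59105175 (plus) for CCNB2.
CHEK2: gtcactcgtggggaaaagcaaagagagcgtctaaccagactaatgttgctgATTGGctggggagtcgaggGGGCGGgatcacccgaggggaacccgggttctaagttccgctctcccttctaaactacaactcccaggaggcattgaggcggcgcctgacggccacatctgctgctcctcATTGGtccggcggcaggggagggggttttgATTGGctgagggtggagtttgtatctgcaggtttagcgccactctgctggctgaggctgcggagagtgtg
BRCA2: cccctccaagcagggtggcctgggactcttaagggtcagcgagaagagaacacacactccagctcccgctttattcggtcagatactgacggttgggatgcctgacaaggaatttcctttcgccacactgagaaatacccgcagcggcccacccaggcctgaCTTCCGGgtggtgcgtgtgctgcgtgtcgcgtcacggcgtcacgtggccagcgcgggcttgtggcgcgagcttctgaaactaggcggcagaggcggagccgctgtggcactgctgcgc
XRCC2: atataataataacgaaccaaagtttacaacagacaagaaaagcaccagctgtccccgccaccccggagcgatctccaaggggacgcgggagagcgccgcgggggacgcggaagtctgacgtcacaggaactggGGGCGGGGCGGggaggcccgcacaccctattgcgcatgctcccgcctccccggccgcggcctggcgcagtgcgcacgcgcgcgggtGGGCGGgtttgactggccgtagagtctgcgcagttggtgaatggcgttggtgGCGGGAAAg
RNF8: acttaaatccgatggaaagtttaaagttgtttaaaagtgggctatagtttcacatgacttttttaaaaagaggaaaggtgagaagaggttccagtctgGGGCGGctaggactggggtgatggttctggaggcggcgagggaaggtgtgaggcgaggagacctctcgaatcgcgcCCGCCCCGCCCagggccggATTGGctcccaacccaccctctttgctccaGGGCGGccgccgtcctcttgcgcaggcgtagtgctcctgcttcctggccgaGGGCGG
PARP1: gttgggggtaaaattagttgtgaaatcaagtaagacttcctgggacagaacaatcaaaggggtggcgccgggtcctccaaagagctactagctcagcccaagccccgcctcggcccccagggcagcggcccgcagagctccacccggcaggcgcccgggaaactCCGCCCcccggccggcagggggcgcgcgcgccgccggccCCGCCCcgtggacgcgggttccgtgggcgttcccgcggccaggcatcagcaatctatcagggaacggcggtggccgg
CCNB2: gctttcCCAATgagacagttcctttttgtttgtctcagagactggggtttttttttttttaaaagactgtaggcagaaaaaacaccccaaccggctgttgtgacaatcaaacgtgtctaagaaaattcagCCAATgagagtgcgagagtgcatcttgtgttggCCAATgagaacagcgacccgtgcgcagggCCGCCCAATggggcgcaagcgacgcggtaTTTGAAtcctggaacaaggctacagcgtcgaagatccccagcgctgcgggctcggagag

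Of the 46 repair genes, 43 were expressed highly enough to be tested, 2 of them rose in the TF1-BAR cells and 4 fell. XRCC2 (ENSG00000196584), a strand exchange gene, and RNF8 (ENSG00000112130), a ubiquitin ligase at breaks, were higher. The checkpoint kinase gene CHEK2 (ENSG00000183765), NBN (ENSG00000104320) of the MRN complex, BRCA2 (ENSG00000139618) and PARP1 (ENSG00000143799) were lower. Genes were tested with limma on log2(FPKM + 0.5), a scale that understates the change of low genes, over all 15519 genes with a mean of at least 0.5 FPKM, and passed at a Benjamini-Hochberg adjusted p under 0.05. The 6 genes are 14% of the 43, while 26.9% of all genes tested passed. Among all genes 16.3% rose and 10.5% fell, against 4.65% and 9.30% of the repair genes.

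The changes of the repair genes were small. Their log2 fold changes ran from −0.61 to 0.62 with a median of −0.02, and 20 were above 0 and 23 below. The median size of the change was 0.14, against 0.27 over all genes tested, whose median log2 fold change was 0.07. Over the 11685 protein-coding genes tested the median size was 0.24, the median log2 fold change was 0.04, and 29.1% passed. By limma 0 repair genes also reached an absolute log2 fold change of 1, which 4.75% of all genes did with an adjusted p under 0.05, and limma voom on recovered fragments gave 0 as well. At an unadjusted p under 0.05, 16 of the 43 passed (37.2%), against 42.2% of all genes tested. The 95% interval of a repair gene reached a median of 0.24 to either side of its log2 fold change and 0.41 at the widest. In 29 of the 43 genes (67.4%) the libraries of the lines did not overlap, near the 69.3% of all genes tested.

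The number of repair genes that passed rested on single libraries. Without TF1-BA replicate 1, TF1-BA replicate 2 or TF1-BAR replicate 2, 0 repair genes passed, and 144, 42 and 1028 of all genes did. Without TF1-BAR replicate 1, 2 rose and 4 fell, and 4 of these 6 were among the 6 above. In these fits the remaining library of a line is assumed to vary like those of the other line. The split between the directions also moved with the scaling. With FPKM rescaled to TPM, 5 rose and 3 fell (62.5% higher, against 33.3%), the additional ones being FANCL, MDC1 and RAD52, while PARP1 no longer passed. Of all genes 29.2% passed with TPM, and the share of these that were higher moved from 60.9% to 70.1%. With the trend of the fold change on GC content, length and level removed, an alternative chosen after seeing the data, 31.6% of all genes passed, and 7 repair genes rose and 4 fell.

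**Figure D1:**
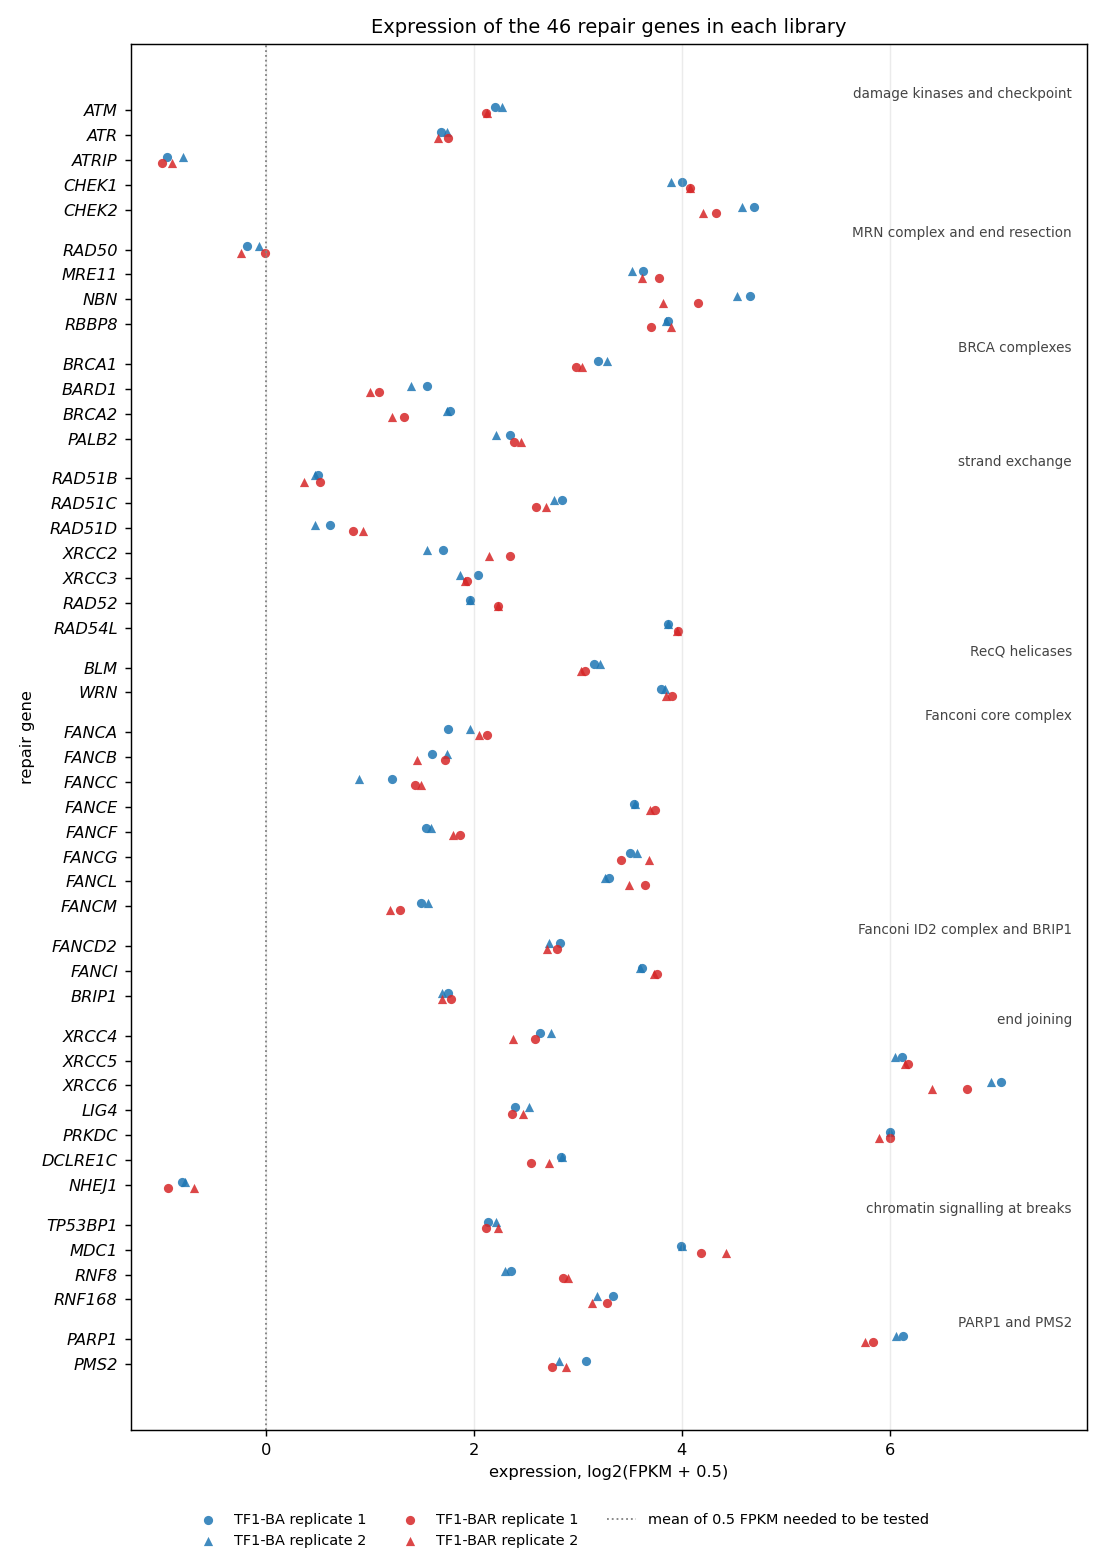
Expression of the 46 repair genes on a log2(FPKM + 0.5) axis, 1 point per library, blue for TF1-BA and red for TF1-BAR, with circles for replicate 1, triangles for replicate 2 and genes grouped by role. The genes spread from near 0 FPKM (ATRIP, RAD50 and NHEJ1 lie at or left of the dotted line of the 0.5 FPKM filter) to over 80 FPKM for XRCC6, and for most genes the lines lie close together.

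The levels of the repair genes differed far more between genes than between the lines. XRCC6, which encodes the smaller Ku subunit, was the highest, with a mean of 112.5 FPKM over the 4 libraries, followed by XRCC5 (69.2 FPKM), PRKDC (62.4 FPKM) and PARP1 (61.4 FPKM). These means pool both lines. In each TF1-BA library PARP1 was slightly above XRCC5, and in each TF1-BAR library XRCC5 was above both PRKDC and PARP1. By the pooled mean CHEK2 came next with 21.5 FPKM, and BRCA2 with 2.40 FPKM and ATR with 2.77 FPKM lay among the lower genes. In the TF1-BAR cells alone, MDC1 had a higher mean than CHEK2 (19.4 against 18.7 FPKM). RAD51B was the lowest gene tested, with a mean of 0.883 FPKM.

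Among the damage kinases and checkpoint genes, 1 of the 4 tested fell. CHEK2 encodes the checkpoint kinase activated by ATM, and its level was 25.3 and 23.3 FPKM in the TF1-BA libraries and 19.6 and 17.9 FPKM in the TF1-BAR libraries. Both resistant libraries lay below both sensitive ones, with a mean of 24.3 ± 1.41 against 18.7 ± 1.15 FPKM (SD, n = 2). The limma log2 fold change was −0.37 (SE 0.081, 95% interval −0.58 to −0.16, adjusted p = 0.032). 7 pseudogenes named after CHEK2 are annotated, and reads that match them could be counted on either.

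ATM, the kinase that senses double-strand breaks, was at 4.10 and 4.34 FPKM in the TF1-BA cells and at 3.85 and 3.88 FPKM in the TF1-BAR cells. The lines did not overlap, but the log2 fold change of −0.11 (−0.33 to 0.11) did not pass (limma adjusted p = 0.367). ATR, which responds to single-stranded DNA at stalled forks, was at 2.71, 2.85, 2.88 and 2.64 FPKM in the same order, and the lines overlapped. Its log2 fold change was −0.01 (−0.26 to 0.25, limma adjusted p = 0.955). CHEK1, the kinase downstream of ATR, had a log2 fold change of 0.13 (−0.05 to 0.32) that did not pass either.

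Of the MRN complex, which binds broken ends and activates ATM, NBN fell and MRE11 did not pass. NBN was at 24.8 and 22.7 FPKM in the TF1-BA libraries and at 17.4 and 13.6 FPKM in the TF1-BAR libraries. The lines did not overlap, and the 2 resistant libraries stood further apart than the 2 sensitive ones, with means of 23.7 ± 1.48 and 15.5 ± 2.64 FPKM (SD, n = 2). NBN had the lowest log2 fold change of the 43 genes, −0.61 (SE 0.13, −0.94 to −0.27, limma adjusted p = 0.0301). MRE11, the nuclease of the complex, had a log2 fold change of 0.12 (−0.12 to 0.36), and RBBP8, which starts end resection with it, one of −0.06 (−0.29 to 0.18). With the trend on GC content, length and level removed, NBN moved to −0.40 (limma adjusted p = 0.0154) and MRE11 passed at 0.27 (limma adjusted p = 0.03).

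The genes of the BRCA complexes had a median log2 fold change of −0.33, and 1 of the 4 passed. The lines did not overlap for all 4, as for 69.3% of all genes, with BRCA1, BARD1 and BRCA2 lower and PALB2 higher in the TF1-BAR cells. BRCA2, which acts on resected DNA, passed the test. Its level was 2.91 and 2.85 FPKM in the TF1-BA libraries and 2.02 and 1.83 FPKM in the TF1-BAR libraries, with means of 2.88 ± 0.041 and 1.92 ± 0.135 FPKM (SD, n = 2). The difference exceeded the spread within either line, with a log2 fold change of −0.48 (SE 0.104, −0.75 to −0.22, limma adjusted p = 0.0304).

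BRCA1 and BARD1, which form a ubiquitin ligase that promotes recombination, did not pass in limma. Both passed with limma voom, which passed 40.3% of all genes. BARD1 also passed with quantile normalization between libraries, which passed 25.7% of all genes. BRCA1 was at 8.65 and 9.20 FPKM in the TF1-BA cells and at 7.38 and 7.71 FPKM in the TF1-BAR cells. Its log2 fold change was −0.23 (−0.43 to −0.03) with a limma adjusted p of 0.0891. BARD1 was at 2.43, 2.13, 1.63 and 1.5 FPKM in the same order and had a log2 fold change of −0.43 (limma adjusted p = 0.057). PALB2, which joins BRCA1 to BRCA2, had a log2 fold change of 0.14 (−0.10 to 0.38).

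Among the 7 strand exchange genes, XRCC2 rose and the other 6 did not pass. XRCC2 belongs to a complex that promotes strand exchange, and its level was 2.76 and 2.43 FPKM in the TF1-BA libraries and 4.60 and 3.92 FPKM in the TF1-BAR libraries. Both resistant libraries were above both sensitive ones, and the ratio of the means was 1.64. The log2 fold change of 0.62 (SE 0.119, 0.31 to 0.93, limma adjusted p = 0.0238) was the highest of the 43 genes, and it rested on at least 182 to 352 fragments per library. RAD51D, a member of the same complex, had a log2 fold change of 0.34 (−0.04 to 0.71), while RAD51B and RAD51C were at −0.05 and −0.17. RAD52, an annealing protein, was at 3.40 FPKM in both TF1-BA libraries and at 4.19 FPKM in both TF1-BAR libraries, with a log2 fold change of 0.27 and a limma adjusted p of 0.0723. RAD54L, a motor protein of strand exchange, had a log2 fold change of 0.09 (−0.08 to 0.26, limma adjusted p = 0.339), and 19.9% of its exon bases are shared with LRRC41 on the opposite strand. XRCC3 shares 76.7% of its exon bases with KLC1 on the opposite strand, and its value of −0.03 is uncertain, as the strand setting of the counting is not given in the sources used here.

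For the RecQ helicases BLM and WRN, which unwind recombination intermediates, limma passed 0 of 2 genes, as did limma voom and an unadjusted p under 0.05. BLM had a log2 fold change of −0.14 (−0.33 to 0.05) and WRN one of 0.05 (−0.12 to 0.23).

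Of the 8 Fanconi core complex genes, whose products form the ligase that marks crosslinked DNA, 0 passed in limma, 5 had an unadjusted p under 0.05 (42.2% of all genes did), and limma voom, which passed 40.3% of all genes, passed FANCC, FANCL and FANCM. The log2 fold change was above 0 for 6 of them, with a median of 0.20. FANCL, the catalytic subunit, was at 9.35 and 9.12 FPKM in the TF1-BA cells and at 12 and 10.8 FPKM in the TF1-BAR cells, and its log2 fold change of 0.29 (0.07 to 0.50) had a limma adjusted p of 0.062. FANCC had the largest value of the group, 0.41 (0.03 to 0.79, limma adjusted p = 0.1), and FANCM, a translocase that recruits the complex, the lowest, −0.28 (−0.56 to −0.01). FANCA, FANCE and FANCF were at 0.23, 0.18 and 0.26, and FANCB and FANCG at −0.08 and 0.01. FANCA shares 19.6% of its exon bases with ZNF276 on the opposite strand.

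FANCD2 and FANCI, the pair that the core complex ubiquitinates, and the helicase gene BRIP1 gave 0 passes of 3 in limma, in voom and at an unadjusted p under 0.05, while FANCI passed with the trend on GC content, length and level removed (0.21, limma adjusted p = 0.0498). Their log2 fold changes were −0.02 (−0.24 to 0.21), 0.14 (−0.04 to 0.31) and 0.02 (−0.23 to 0.27).

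**Figure D2:**
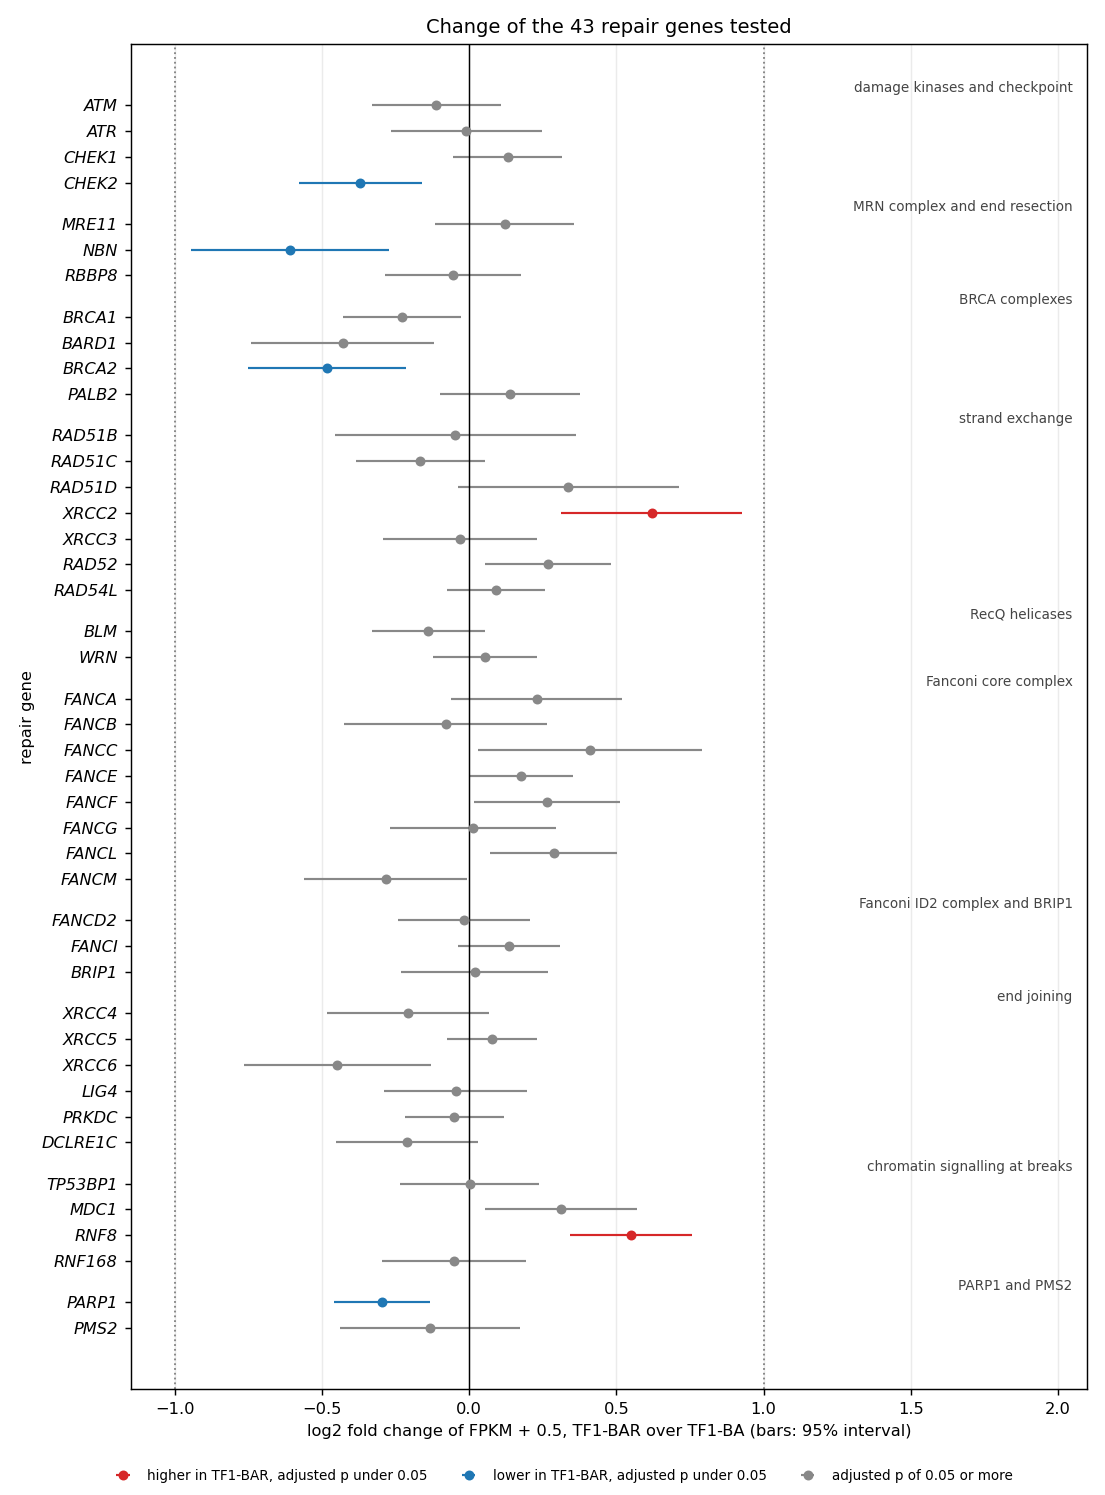
Log2 fold change of FPKM + 0.5 in TF1-BAR over TF1-BA cells for the 43 repair genes tested, with 95% intervals from limma, red for genes that rose, blue for genes that fell and grey for those with an adjusted p of 0.05 or more. All points lie between −0.61 and 0.62, inside the dotted lines at an absolute value of 1, and the 6 coloured genes belong to 6 of the roles.

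Of the end joining genes tested, 0 of 6 passed in limma and 1, XRCC6, had an unadjusted p under 0.05. XRCC6 passed in 4 of 14 alternatives, which were limma voom, a mean of at least 1 FPKM, the replicate block and leaving out TF1-BAR replicate 1. It was at 134.0 and 125.1 FPKM in the TF1-BA libraries and at 106.6 and 84.3 FPKM in the TF1-BAR libraries. The lines did not overlap, but the resistant libraries differed widely from each other, and the log2 fold change of −0.45 (−0.76 to −0.13) had a limma adjusted p of 0.0539. 5 pseudogenes are named after XRCC6, and reads could be split with them. XRCC5, its partner in the Ku ring, was at 69.0 and 65.6 FPKM and at 71.7 and 70.5 FPKM, with a log2 fold change of 0.08 (−0.07 to 0.23, limma adjusted p = 0.364). With the trend on GC content, length and level removed, XRCC5 passed at 0.20 (limma adjusted p = 0.0429).

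PRKDC, the catalytic subunit of the DNA-dependent kinase that Ku recruits, was at 63.6 and 63.4 FPKM in the TF1-BA libraries and at 63.8 and 59.0 FPKM in the TF1-BAR libraries. The lines overlapped, and PRKDC had at least 14621 fragments per library. Its interval was among the narrow ones, −0.22 to 0.12 around a log2 fold change of −0.05 (limma adjusted p = 0.599). The ligase gene LIG4 and its partner XRCC4 had log2 fold changes of −0.05 and −0.21. DCLRE1C, the nuclease Artemis, was at −0.21 (−0.45 to 0.03).

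Of the genes for chromatin signalling at breaks, RNF8 rose and the other 3 did not pass. RNF8 ubiquitinates chromatin next to a break, and its level was 4.64 and 4.43 FPKM in the TF1-BA libraries and 6.73 and 7.01 FPKM in the TF1-BAR libraries. The lines were clearly apart, with means of 4.53 ± 0.149 and 6.87 ± 0.202 FPKM (SD, n = 2) and a log2 fold change of 0.55 (SE 0.080, 0.34 to 0.76). Its limma adjusted p of 0.0125 was the lowest of the 43 genes, and RNF8 passed in 11 of 14 alternative analyses, against 8 or 9 for the other 5 genes that passed. MDC1, the scaffold that recruits RNF8, was at 15.4 and 15.5 FPKM and at 17.7 and 21.1 FPKM, with a log2 fold change of 0.31 (limma adjusted p = 0.0778). RNF168, which extends the ubiquitin mark, and TP53BP1, which binds it, had log2 fold changes of −0.05 and 0.00. TP53BP1 shares 28.8% of its exon bases with TUBGCP4 on the opposite strand, and its value is uncertain for the same reason as that of XRCC3.

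PARP1, which senses DNA breaks and makes poly(ADP-ribose), fell, and its log2 fold change was the smallest in size among the 6 genes. It was at 69.4 and 66.1 FPKM in the TF1-BA libraries and at 56.5 and 53.7 FPKM in the TF1-BAR libraries. Both resistant libraries lay below both sensitive ones, with a log2 fold change of −0.30 (SE 0.063, −0.46 to −0.13, limma adjusted p = 0.0304), from at least 6189 fragments in each library. It did not pass when FPKM was rescaled to TPM. PMS2, a mismatch repair gene in the list, had a log2 fold change of −0.13 (−0.44 to 0.17), and 15 pseudogenes are named after it.

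**Figure D3:**
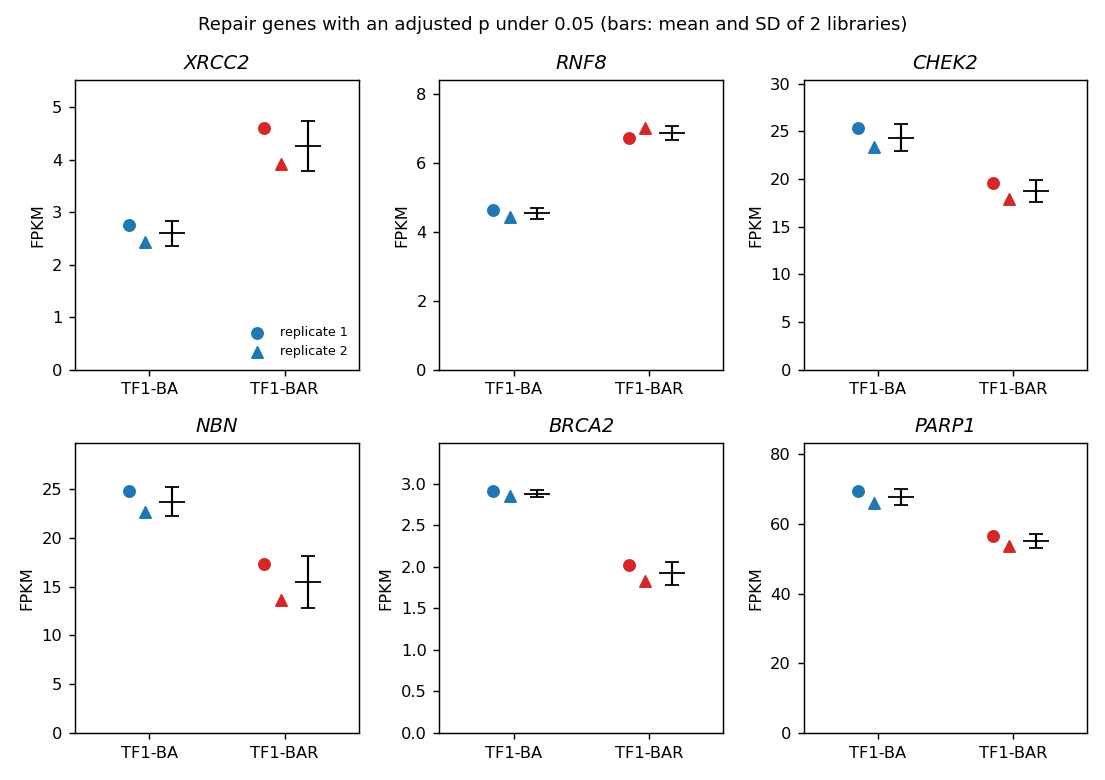
FPKM of the 6 repair genes with an adjusted p under 0.05 in each library (circles for replicate 1, triangles for replicate 2), with the mean and SD of the 2 libraries of each line beside them and axes that start at 0. In each panel the 2 lines do not overlap, XRCC2 and RNF8 being higher and CHEK2, NBN, BRCA2 and PARP1 lower in TF1-BAR cells.

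ATRIP, RAD50 and NHEJ1 were not tested, because their mean level was under 0.5 FPKM. RAD50, the third MRN subunit, was at 0.380 and 0.457 FPKM in the TF1-BA cells and at 0.494 and 0.350 FPKM in the TF1-BAR cells. NHEJ1 lay between 0.0204 and 0.120 FPKM, and ATRIP, the partner of ATR, between 0 and 0.0757 FPKM. These are also the 3 repair genes of which at least 90% lies inside another protein-coding gene of the table on the same strand, namely AC116366.3 for RAD50 (99.7%), AC068946.1 for NHEJ1 (100%) and AC134772.2 for ATRIP (99.3%). Of the other 43 repair genes 0 do, and 0 of them were under 0.5 FPKM. The enclosing genes were low as well, as AC116366.3 was listed at 0 in the 4 libraries and the other two stayed under 0.2 FPKM. In GENCODE 44 the exon bases shared with genes on the same strand were 76.9% for RAD50, 19.5% for NHEJ1 and 0% for ATRIP. Over all protein-coding genes of the table, 52.2% of the 393 enclosed genes and 30% of the 16423 others were under 0.5 FPKM. The part of this overlap in the low values was not tested, and the low values of these 3 genes are therefore uncertain.

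Among 84 further genes of the same pathways, 81 were tested, 7 rose and 9 fell, 19.8% against the 14% of the 46-gene list and the 26.9% of all genes. The median log2 fold change was −0.01. BRCC3, a deubiquitinase of the BRCA1-A complex, rose from 8.90 and 8.41 FPKM to 15.8 and 14.8 FPKM (log2 fold change 0.79, limma adjusted p = 0.00645). SHLD1 of the shieldin complex rose by 0.53. UBE2T, the ubiquitin-conjugating enzyme of the Fanconi pathway, fell from 33.8 and 33.2 FPKM to 21.0 and 18.0 FPKM (log2 fold change −0.77, limma adjusted p = 0.00888). SHLD2 and RPA3, a subunit of the protein that coats single-stranded DNA, had log2 fold changes of −0.62 and −0.60.

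Chromosomes 10 and 20 stood apart over all genes, with a median log2 fold change of −0.35 on chromosome 10, where 44.5% of the genes tested fell, and of 0.39 on chromosome 20. SHLD2 is on chromosome 10 and SHLD1 on chromosome 20. Of the 46-gene list, DCLRE1C is on chromosome 10 and 0 genes are on chromosome 20, and without these chromosomes 6 of 42 passed, as before. Of the further pathway genes 9 of 73 then passed (12.3%, against 25.2% of all genes).

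Many repair genes are transcribed with the cell cycle, and cell cycle genes were examined beside them. Of 30 S phase genes, 2 rose and 5 fell (23.3%, against 26.9% of all genes, and 4 genes with the replicate number as a block), with MCM7 and PCNA at log2 fold changes of 0.54 and 0.38 and RRM2, CCNE2 and CDC6 at −0.80, −0.67 and −0.52. Of 30 G2/M genes, 0 rose and 18 fell (60.0%, against 10.5% of all genes), and the median log2 fold change was −0.48. CDK1 was at −1.49, KIF20B at −1.28 and CCNB2 at −0.98. CDK1 and KIF20B are on chromosome 10, and without chromosomes 10 and 20 13 of 23 G2/M genes fell, with a median of −0.48. Of the 20 p53 target genes tested, 2 rose (BTG2 at 0.60 and PLK3 at 0.55) and 3 fell (FAS at −0.86, FDXR at −0.62 and SESN2 at −0.42), 25% against the 26.9% of all genes. FAS is on chromosome 10 and PCNA on chromosome 20, and without these chromosomes 4 of 19 p53 targets passed (21.1%, against 25.2% of all genes). The part of the cell cycle in the changes of the repair genes was not tested.

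Promoter motifs were counted as a description, with no test. Windows of 300 bases, from 250 before to 50 after the start, were searched, and a gene can have several. An E2F site was found in 7 of 60 windows of the repair genes (11.7%), in 45.7% of the 35 windows of S phase genes, in 14.3% of the 28 windows of G2/M genes and in 3.31% of all 35116 windows. The repair genes with one were FANCA, FANCC, FANCD2, PMS2, XRCC2 and XRCC6, so that XRCC2 was the one of the 5 printed repair genes to hold a match, just after its start. A CHR element was found in 6.67% of the windows of the repair genes, in 82.1% of those of G2/M genes and in 16.4% of all windows, and of the printed promoters that of CCNB2 has one. An ETS site, as in the BRCA2 promoter, was found in 30% of the repair windows, 11.4% of the S phase, 21.4% of the G2/M and 10.3% of all windows. NF-Y boxes, of which the CHEK2 promoter has 3, were in 50% of the repair windows, 68.6% of the S phase, 75.0% of the G2/M and 34.6% of all windows. GC boxes were in 71.7%, 80.0%, 75.0% and 45.0% in the same order. A match says that these letters are in the window, and not that a factor binds there.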

How the data were processed

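The authors prepared 2 libraries from each line with the NEBNext Ultra kit and sequenced them as paired-end reads. Reads were mapped to GRCh38 with TopHat2 2.0.13, followed by Cufflinks 2.2.0 and Cuffdiff 2.2.0 (submitters' processing notes), and the authors tested differential expression with DESeq2. The annotation release is not given in the sources used here. The deposited values are FPKM per library, used as they are. Fragments were recovered as the whole numbers that the FPKM imply (tolerance 0.01 for the 30853 genes above 0), so that fragment numbers per gene are lower bounds, and cover counting error only.

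Genes with a mean of at least 0.5 FPKM were compared on log2(FPKM + 0.5) with limma 3.58.1 in R 4.3.3 (eBayes with trend), and p-values were adjusted over all genes by the Benjamini-Hochberg method. The threshold was 0.05, two-sided, and differential expression also needed an absolute log2 fold change of 1. An exact permutation test of 2 against 2 libraries cannot go below p = 0.333. The test was checked on simulated data, with changes larger than those of the repair genes tested. That check does not show how well changes of their size are found. Replicates of a line differed beyond counting noise (chi-square per degree of freedom 4.07 and 7.0). Same-numbered libraries deviated together with a correlation of 0.0646, so the numbers were not taken as pairs. The members and all gene lists were chosen with earlier results of these data known. All 4 values are given for genes with an adjusted p under 0.05 and for ATM, ATR, BRCA1, BRCA2, PRKDC and PARP1, and up to 3 genes per direction are named from the other lists. Some genes of these lists are not reported here. The other repair genes are given by role with log2 fold changes, and those printed with FPKM or intervals were chosen after their values were seen. Promoters are from RefSeq, and gene overlaps from GENCODE 44.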

Additional observations from a re-analysis of the deposited data

How the results depend on the processing

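The 43 genes were tested again under 12 alternatives and under 2 chosen after seeing the data, limma voom on recovered fragments and removal of the trend on GC content, length and level. Of 601 values, 514 kept their direction and side of the threshold, 21 newly passed, 29 no longer passed and 37 changed sign. The count of 6 repair genes became 1 with no filter on low values, 3 without the trend in eBayes (3088 of all genes), 14 with voom and 11 (63.6% higher) with the trend removed (4865 of all genes, 64.8% higher), and 0 to 6 when a replicate was left out. With no filter the counts were 2 further pathway genes, 0 S phase genes, 4 G2/M genes, 1 p53 target and 1232 of all genes. Without the trend 2 S phase genes passed, and voom passed 6347 of all genes. With a replicate left out, the counts ran from 0 to 9 for the further pathway genes, 0 to 5 for S phase, 0 to 17 for G2/M, 0 to 6 for p53 targets and 42 to 3176 for all genes. The causes were not tested.

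With the replicate number as a block, 7 repair genes passed, XRCC6 being the additional one, as did 4 S phase genes in place of 7 and 3969 of all genes (25.6%), and no other repair gene changed its call. The median log2 fold change of the repair genes lay between -0.08 and 0.05 over the alternatives. The adjusted p of the 6 genes ranged over the alternatives from 0.00113 to 0.146 for XRCC2, 0.000377 to 0.112 for RNF8, 0.00445 to 0.201 for CHEK2, 0.00136 to 0.164 for NBN, 0.000774 to 0.177 for BRCA2 and 0.0051 to 0.213 for PARP1, and each kept its direction. The log2 fold changes that changed sign had not passed the test. With TPM they were 0.0489 for ATR, 0.011 for RBBP8, 0.0288 for XRCC3, 0.0446 for FANCD2, 0.0166 for LIG4, 0.0182 for PRKDC and 0.0127 for RNF168. With quantile normalization they were -0.0137 for FANCG, -0.0782 for BRIP1 and -0.0809 for TP53BP1. With the trend removed they were 0.114 for ATR, 0.0531 for RBBP8, 0.0506 for FANCB, 0.0046 for FANCD2, 0.0366 for XRCC4, 0.0606 for LIG4, 0.0077 for PRKDC and -0.0522 for TP53BP1. With a replicate left out they ran from -0.0611 to 0.043 for ATR, -0.152 to 0.0414 for RBBP8, -0.123 to 0.029 for RAD51B, -0.116 to 0.0545 for XRCC3, -0.213 to 0.0538 for FANCB, -0.119 to 0.145 for FANCG, -0.0729 to 0.0352 for FANCD2, -0.0261 to 0.0626 for BRIP1, -0.111 to 0.0199 for LIG4, -0.105 to 0.0056 for PRKDC, -0.0515 to 0.0561 for TP53BP1 and -0.126 to 0.0215 for RNF168. The part of depth in the width of the intervals was not tested.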
